A study of Mus musculus with 23 samples.

Results

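Calf muscle of mice suspended by the tail for 12 days was compared with calf muscle of untreated mice, with 5 Affymetrix arrays in each group. The 10 arrays were chosen by sample title from the 23 arrays of a study of spaceflight and skeletal muscle. All mice were female C57BL/6J aged 77 days. The suspended mice hung at about 30 degrees from a dowel that swivels, so that the hindlimbs bore no weight, and the control mice were housed 3 to a cage. A further 5 calf arrays came from mice suspended for 12 days and then set back on their feet for 3.5 h (called reloaded here). The other 8 arrays were gastrocnemius, 4 from mice flown for 11 days 19 h and 4 from mice kept as long in the same type of enclosure on the ground. The labels do not say how the suspended mice were housed, which muscles of the calf were taken, or whether replicates came from different animals. The p-values therefore cover only the spread among the arrays, part of which may be technical.

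The mouse calf holds the gastrocnemius and plantaris, which are mostly fast muscle, and the small soleus, which is rich in slow oxidative fibres. Slow fibres carry posture, burn fatty acids and ketone bodies in their mitochondria, and are the fibres known to respond most to loss of load. Proteins at the Z-disc, the anchor of the thin filaments, and small heat shock proteins that bind them take part in sensing and bearing mechanical load. A whole calf also holds nerve, tendon, fat and vessels, and in such a bulk sample fewer cells of a type and less RNA per cell cannot be told apart.

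Values are log2 signals, so a difference of 1 is a 2-fold change. Each gene was read from 1 probe set, and 9133 of 12393 genes passed a filter on low signal. A gene was called where limma's adjusted p was under 0.05 over all 9133 genes. Values for single arrays are given in a fixed order, replicates 19, 1, 21, 22 and 2 for control, 11, 25, 30, 8 and 9 for suspension, and 14, 15, 16, 18 and 33 for reloaded. The tissue label was checked against a list of skeletal muscle genes, and 18 of its 18 measured genes passed the filter. Its median difference was 0.02, and skeletal actin (Acta1) read 13.83 ± 0.06 (SD, n = 5) in control and 13.81 ± 0.05 in suspension.

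Suspension replicate 8 stood apart from the other suspension arrays. Its median correlation with them over the tested genes was 0.975, against 0.983 to 0.987 for the other 4, and it held the lowest value of the group in 30.8% of genes and the highest in 27.9%. Its range, taken as the interquartile distance of the array's values, was 2.20, and that of suspension replicate 9 was 2.29. The control arrays had ranges from 2.34 to 2.44. The mean range was 2.38 ± 0.04 (SD, n = 5) in control and 2.35 ± 0.11 in suspension, with p = 0.524 in a two-sided exact permutation test, whose smallest possible p is 0.00794. Suspension was also the more variable group gene by gene. The median SD of a gene was 0.16 in suspension, 0.11 in control and 0.11 in reloaded calf, and 73.0% of genes had the higher SD in suspension. Without replicate 8 the suspension median was 0.14 and the share 61.9%.

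A small set of genes passed the test. Of 9133 genes, 34 were called (0.372%), with 12 higher (0.131%) and 22 lower (0.241%) in suspension. In all 34 the 5 suspension arrays lay apart from the 5 control arrays, as they did in 186 of all genes tested (2.04%). The unadjusted p was under 0.05 in 790 genes (8.65%), 330 of them higher and 460 lower. Whatever the p, 4483 of the 9133 genes (49.1%) were lower in suspension, the share to set beside the list counts below. The called changes were small: they ran from 0.43 to 1.87 in size, and 5 reached 2-fold, namely Mbp, Fasn and Cyp2e1 upward and Bdh1 and Fabp3 downward. The list of calls depended on single arrays. Of the 34 calls, 12 were kept whichever array of the 2 groups was left out: those of Pdlim1, Bdh1, Fabp3, Casq2, Csrp3, Tnfrsf12a, Slc66a2, Hspb7, Cyp2e1, Ndrg1, Tkt and Gpt2. Leaving out suspension replicate 8 kept 18 of the 34 calls, replicate 30 kept 16, replicate 9 kept 21, replicate 11 kept 30 and replicate 25 kept 29. Leaving out control replicate 22 kept 15, replicate 19 kept 16, replicate 2 kept 22, replicate 1 kept 23 and replicate 21 kept 24. No called gene changed sign under any of these. Replicate 8 was the suspension array farthest from the controls in 13 of the 34 genes, against 4 to 7 for each of the other suspension arrays.

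**Figure D1:**
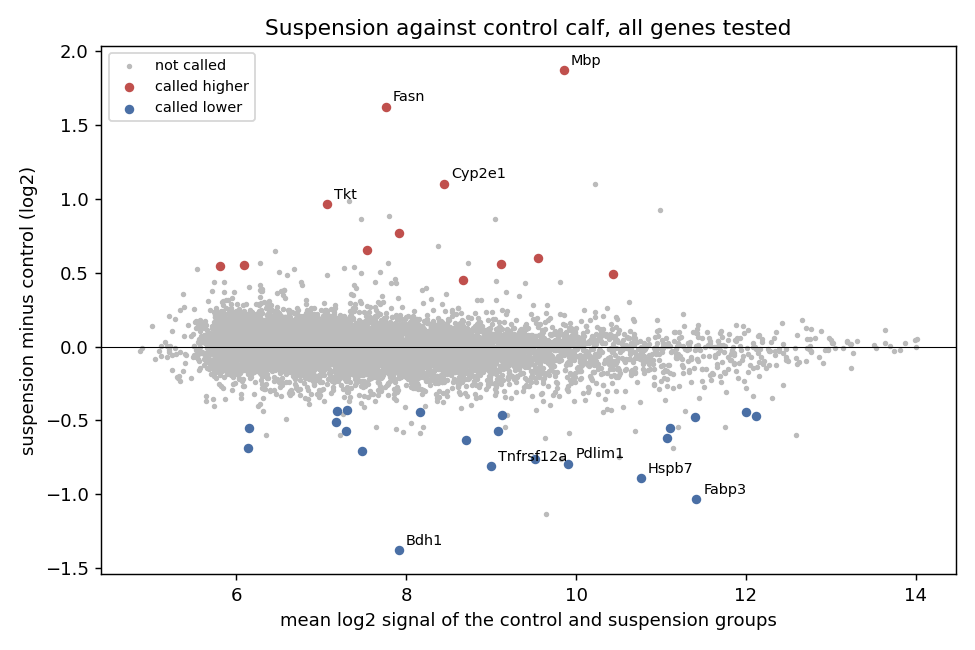
Each point is 1 of the 9133 genes tested, with the mean log2 signal of control and suspension on the x axis and the log2 difference, suspension minus control, on the y axis. The 12 genes called higher and 22 called lower lie at the edges of a cloud centred on 0.00, with Mbp at 1.87 and Bdh1 at -1.38 as the extremes.

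The steepest fall was in ketone body use. Bdh1, the mitochondrial enzyme that interconverts hydroxybutyrate and acetoacetate, read 8.56, 8.61, 8.63, 8.64 and 8.55 in control and 7.65, 7.47, 6.92, 7.20 and 6.86 in suspension. The control arrays agreed closely, and the highest suspension array lay 0.90 below the lowest control. The gene fell by 1.38 (SE 0.15), a 2.60-fold change (limma adjusted p = 3.66e-05). A second Bdh1 probe set, below the filter, differed by -1.03. The list held 4 tested genes and all 4 were lower, but Bdh1 alone was called (0.241% of all genes called lower). Oxct1, which activates acetoacetate for burning, differed by -0.41 (adjusted p = 0.198) and Acat1, the thiolase that splits the product, by -0.27 (adjusted p = 0.372). The list's median was -0.36, and -0.24 without suspension replicate 8, against 0.00 for all genes tested.

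Among genes of fatty acid uptake and binding 1 fell, and the genes of fatty acid oxidation were all lower without a call. Fabp3, the heart-type fatty acid-binding protein of oxidative muscle, read 11.98, 11.57, 12.36, 12.06 and 11.69 in control and 10.86, 11.21, 10.89, 10.69 and 10.83 in suspension. Every suspension array was below every control, and the gene fell by 1.03 (SE 0.14, limma adjusted p = 0.000805). Cd36, a fatty acid transporter at the cell surface, differed by -0.32 (adjusted p = 0.278) and Lpl, the lipase that frees fatty acids in the capillary, by -0.10 (adjusted p = 0.747). A second, dimmer Lpl probe set above the filter differed by -0.49, with limma adjusted p = 0.0631 over all probe sets tested. Of 9 tested genes of uptake and binding 5 were lower and 4 higher, and Fabp3 alone was called (0.241% of all genes called lower). The median was -0.05, which turned to 0.02 without suspension replicate 8. All 20 tested genes of fatty acid oxidation were lower, from -0.40 to -0.12, and 18 had an unadjusted p under 0.05, yet 0 were called by limma. Their median was -0.24, and -0.22 without suspension replicate 8. Acadl, a dehydrogenase of the first step, differed by -0.30 (adjusted p = 0.402), and Hadha, a subunit of the trifunctional protein, by -0.20 (adjusted p = 0.413). In 5 of the 20 genes the groups did not overlap, where 1.34% of all genes had suspension apart and below.

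The citric acid cycle and the respiratory chain showed smaller differences, and that of the cycle rested more on single arrays. Idh2, the NADP-dependent isocitrate dehydrogenase of mitochondria, read 11.06, 11.49, 11.36, 11.40 and 11.61 in control and 10.99, 11.00, 10.56, 10.47 and 10.79 in suspension. The groups were apart by a narrow margin, and the gene fell by 0.62 (SE 0.11, limma adjusted p = 0.0147). Without suspension replicate 30 its adjusted p was 0.0523, and its call was kept in the other 9 fits with an array left out. Of 16 tested genes of the cycle 15 were lower, 1 of them called (0.241% of all genes called lower). Their median was -0.17, -0.08 without suspension replicate 8 and -0.05 without replicates 8 and 9. Per suspension array the list's median stood at -0.03, -0.02, -0.10, -0.45 and -0.30 against the control mean. Idh3a differed by 0.01 and citrate synthase (Cs) by -0.09. All 33 tested subunits of complex I were lower with a median of -0.11, and all 15 of complex V with a median of -0.11, and limma called 0 of either list. Unadjusted p was under 0.05 in 11 of the complex I genes and 3 of the complex V genes. For complexes III and IV 18 of 21 were lower with a median of -0.07. Without suspension replicate 8 the medians were -0.07 for complex I, -0.07 for complex V and -0.07 for complexes III and IV. Ppargc1a, a coactivator of mitochondrial genes, read 6.80 ± 0.13 (SD, n = 5) in control and 6.77 ± 0.21 in suspension.

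Other enzymes of fuel use moved in both directions. Ldhb, the lactate dehydrogenase subunit of oxidative tissue, read 11.40, 11.71, 11.57, 11.75 and 11.79 in control and 11.29, 11.31, 10.93, 11.05 and 11.25 in suspension, and fell by 0.47 (SE 0.09, limma adjusted p = 0.0244). Its call was kept in 5 of 10 fits with 1 array left out. Gpt2, the mitochondrial alanine aminotransferase, read 9.38, 8.98, 9.31, 9.20 and 9.36 in control and 9.98, 10.09, 9.65, 9.73 and 9.80 in suspension. All 5 suspension arrays were above all controls, and Gpt2 rose by 0.60 (SE 0.10, limma adjusted p = 0.00891). The list of glycolysis and glycogen genes had 8 of 18 genes higher and a median of -0.01, which turned to 0.01 without suspension replicate 8. Pygm, muscle glycogen phosphorylase, differed by 0.06.

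The list of genes of fatty acid synthesis and of NADPH supply lay mostly on the higher side. Fasn, which builds palmitate, read 6.51, 7.80, 5.98, 6.59 and 7.84 in control and 8.41, 8.24, 9.03, 9.03 and 8.13 in suspension. The controls spread widely, and replicates 1 and 2 came close to the lowest suspension array. Fasn rose by 1.62 (SE 0.32), a 3.08-fold change (limma adjusted p = 0.0244). The call was kept in 5 of 10 fits with 1 array left out, with adjusted p = 0.0738 without suspension replicate 8 and 0.0918 without control replicate 19. Tkt, transketolase of the pentose phosphate pathway, read 6.42, 6.98, 6.32, 6.25 and 6.92 in control and 7.39, 7.49, 7.94, 7.81 and 7.09 in suspension. It rose by 0.97 (SE 0.16, limma adjusted p = 0.00891), and control replicates 1 and 2 were again the highest of their group. Of 19 tested genes of the list 15 were higher and 2 were called (0.131% of all genes called higher), with a median of 0.23. An unadjusted p under 0.05 was reached by 11 of the higher genes and by 2 of the 4 lower ones. Acly, which supplies acetyl-CoA, differed by 0.57 (adjusted p = 0.12) and Scd1, the stearoyl-CoA desaturase, by 0.93 (adjusted p = 0.346). Acaca, the carboxylase just before Fasn, differed by 0.01, and Me1, an enzyme of NADPH supply, by 0.18 (adjusted p = 0.367).

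Fat tissue makes the same enzymes, so the adipocyte markers are set beside them. Of 10 tested markers 8 were higher with a median of 0.18, and Acvr1c, Cidea, Pck1 and Pparg were below the filter. Scd1, the highest of these markers at 0.93, is also counted in the list of fatty acid synthesis, so the lists are not separate. The summed signal includes it too. The summed signal of the list on the log2 scale ran from 13.26 to 13.81 in control and from 13.70 to 13.93 in suspension. Adipoq, which encodes adiponectin, read 8.83, 8.74, 7.91, 8.46 and 9.09 in control and 9.50, 9.41, 9.65, 9.75 and 9.03 in suspension. The groups overlapped, and the difference was 0.86 (limma adjusted p = 0.109). Fabp4, the fatty acid-binding protein of adipocytes, differed by 0.04 and Car3 by -0.02. Npr3, the clearance receptor for natriuretic peptides, fell by 0.69 (adjusted p = 0.0444), and its call was kept in 2 of 10 fits with 1 array left out. The part of fat cells in the Fasn and Tkt differences was not tested.

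Cyp2e1, a cytochrome P450 that oxidises ethanol and other small molecules, had the smallest adjusted p among the genes that rose. It read 8.01, 7.89, 7.85, 7.67 and 8.06 in control and 9.24, 8.88, 9.06, 9.30 and 8.51 in suspension. The groups were apart, with replicate 9 the lowest of the suspended arrays, and the gene rose by 1.10 (SE 0.14, limma adjusted p = 0.000442). It was called in every alternative setting tried.

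The sequences before the start sites are printed for Fabp3, Fasn and Cyp2e1, the genes changed at least 2-fold that have 1 start site in the table used. They are the 150 bases before the start site from RefSeq on GRCm38.p6, 5′ to 3′ on the gene's strand, with matches to the motifs CCAAT (bound by NF-Y) and TATAAA (the TATA box) in capitals. Both strands were searched, so CCAAT also appears as ATTGG, and 1 pair of matches in Fasn overlaps. Fabp3 lies on the plus strand at chr4:130308588-130308737, Fasn on the minus strand at chr11:120824548-120824697 and Cyp2e1 on the plus strand at chr7:140763669-140763818.
Fabp3: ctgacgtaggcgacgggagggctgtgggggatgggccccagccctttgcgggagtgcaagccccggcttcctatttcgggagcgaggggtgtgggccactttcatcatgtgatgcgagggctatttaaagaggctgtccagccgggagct
Fasn: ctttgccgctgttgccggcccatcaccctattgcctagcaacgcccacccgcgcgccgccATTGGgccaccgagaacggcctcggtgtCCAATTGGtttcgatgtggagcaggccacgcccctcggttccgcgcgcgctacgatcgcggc
Cyp2e1: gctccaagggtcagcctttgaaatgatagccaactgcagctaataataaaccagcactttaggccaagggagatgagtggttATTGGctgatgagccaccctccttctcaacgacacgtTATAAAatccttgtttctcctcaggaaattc

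Fasn held CCAAT at 3 places, Cyp2e1 held CCAAT and TATAAA, and the Fabp3 stretch held none of the 6 motifs searched. Windows were found for 28 of the 34 called genes, each running from 250 bases before to 50 after the start. CCAAT was in 41.1% of the 27025 genes with a window, in 5 of 18 called lower and in 2 of 10 called higher. TATAAA was in 15.7% of genes, in 2 of 18 and in 3 of 10. GGGCGG, an Sp1 motif, was in 38.2% of genes, in 10 of 18 called lower and in 5 of 10 called higher. AGGTCA, a core motif of nuclear receptor sites, was in 18.1% of genes, in 1 of 18 (Ldhb) and in 1 of 10 (Art3). Of the E-boxes, CAGCTG was in 18.3% of genes, 3 of 18 and 3 of 10, and CACGTG in 8.10% of genes, 1 of 18 and 1 of 10. These are matches of letters in short windows and show no binding.

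Slow fibre genes were lower in every tested member. All 15 were lower, with a median of -0.31, the same without suspension replicate 8. In 8 of the 15 the groups did not overlap, where 1.34% of all genes had suspension apart and below. Limma called 4 of them, Casq2, Csrp3, Myl3 and Myoz2, against 0.241% of all genes called lower. Casq2, the calsequestrin of slow and cardiac muscle, read 9.01, 8.99, 9.22, 8.86 and 9.02 in control and 8.59, 8.49, 8.38, 8.15 and 8.31 in suspension. All controls were above all suspension arrays, and Casq2 fell by 0.64 (SE 0.10, limma adjusted p = 0.0084). Myl3, a slow myosin essential light chain, read 12.30, 12.35, 12.45, 12.41 and 12.28 in control and 12.08, 11.93, 12.04, 11.69 and 11.69 in suspension. It fell by 0.47 (SE 0.09, adjusted p = 0.0143), with suspension replicates 8 and 9 the lowest. Its adjusted p was 0.0526 without control replicate 22. Myoz2, a Z-disc protein of slow fibres that binds calcineurin, fell by 0.56 (adjusted p = 0.0333), from 11.38 ± 0.06 (SD, n = 5) to 10.83 ± 0.24, and its call was kept in 3 of 10 fits with 1 array left out.

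Several slow genes missed the threshold. Myl2, the slow regulatory light chain, read 12.88, 12.94, 12.80, 12.92 and 12.88 in control and 12.28, 12.44, 12.02, 12.32 and 12.39 in suspension. The groups did not overlap, with a difference of -0.60 (SE 0.13) and limma adjusted p = 0.0541. The slow troponins differed by -0.55 (Tnni1, adjusted p = 0.198), -0.31 (Tnnc1, 0.413) and -0.27 (Tnnt1, 0.526). Myh7, the slow myosin heavy chain, differed by -0.24 (adjusted p = 0.548). Myh2, the heavy chain of fast oxidative fibres, differed by -0.35 (adjusted p = 0.057). Of the fast fibre genes 9 of 14 were higher with a median of 0.01, which turned to -0.01 under quantile normalization, and limma called 0, with 1 at an unadjusted p under 0.05. Myh4, the heavy chain of the fastest fibres, read 13.28 ± 0.06 (SD, n = 5) in control and 13.32 ± 0.08 in suspension.

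Genes of the Z-disc and of load sensing held the gene with the smallest p of the whole comparison. Pdlim1, a PDZ and LIM domain protein that binds actinin, read 10.39, 10.36, 10.22, 10.21 and 10.34 in control and 9.45, 9.42, 9.64, 9.44 and 9.60 in suspension. Both groups were tight and lay 0.57 apart, and Pdlim1 fell by 0.79 (SE 0.08, limma adjusted p = 2.47e-05). Its adjusted p stayed at or below 0.000226 whichever array was left out, but the gene was not called on the mean of its probe sets, where 2 dim ones that differed by 0.03 and 0.00 in size bring the difference to -0.26. Csrp3, the muscle LIM protein, read 10.02, 9.82, 9.96, 9.61 and 10.05 in control and 8.95, 9.54, 9.01, 8.99 and 9.15 in suspension. Suspension replicate 25 came close to the controls, and the gene fell by 0.76 (SE 0.13, limma adjusted p = 0.00891). Of 20 tested genes of the list 18 were lower, 10 had groups that did not overlap with suspension below (1.34% of all genes), and 3 were called (0.241% of all genes called lower): Pdlim1, Csrp3 and Myoz2. Csrp3 and Myoz2 are also counted in the slow fibre list. The median was -0.21, and -0.15 without suspension replicate 8.

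The stretch-responsive ankyrin repeat genes had wide spread across the calf arrays. Ankrd1 read 6.52, 6.51, 6.65, 6.68 and 6.87 in control and 5.90, 6.16, 5.89, 6.13 and 6.15 in suspension. The groups were apart, but the spread in the fit also drew on the reloaded arrays. The difference of -0.60 had limma adjusted p = 0.373. Ankrd2 differed by -0.76 (adjusted p = 0.0695), Xirp1, an actin-binding repair protein, by -0.55 (adjusted p = 0.42) and Flnc, muscle filamin, by -0.44 (adjusted p = 0.336).

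Of the small heat shock proteins, which guard these structures, 2 fell. Hspb7, a small heat shock protein of heart and muscle, read 11.02, 11.18, 11.35, 11.13 and 11.36 in control and 9.72, 10.84, 10.32, 10.24 and 10.44 in suspension. Replicate 11 was the lowest and replicate 25 the highest of the suspension arrays, and Hspb7 fell by 0.89 (SE 0.16, limma adjusted p = 0.0134). Cryab, the chaperone that binds desmin, read 12.14, 12.29, 12.15, 12.14 and 12.36 in control and 11.82, 11.85, 11.51, 11.78 and 11.92 in suspension, and fell by 0.44 (adjusted p = 0.0333). Its call was kept in 3 of 10 fits with 1 array left out. The list also counts the co-chaperone Bag3, which is not a small heat shock protein and whose own difference was -0.27. All 7 tested genes of the list were lower, 2 of them called (0.241% of all genes called lower), with a median of -0.27. Without suspension replicate 8, 6 of the 7 were lower and the median was -0.23. Hspb1 differed by -0.27 (adjusted p = 0.458) with groups that did not overlap. Among the larger chaperones 16 of 19 were lower with a median of -0.21, and -0.14 without suspension replicate 8. Limma called 0 of them, with 6 at an unadjusted p under 0.05.

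**Figure D2:**
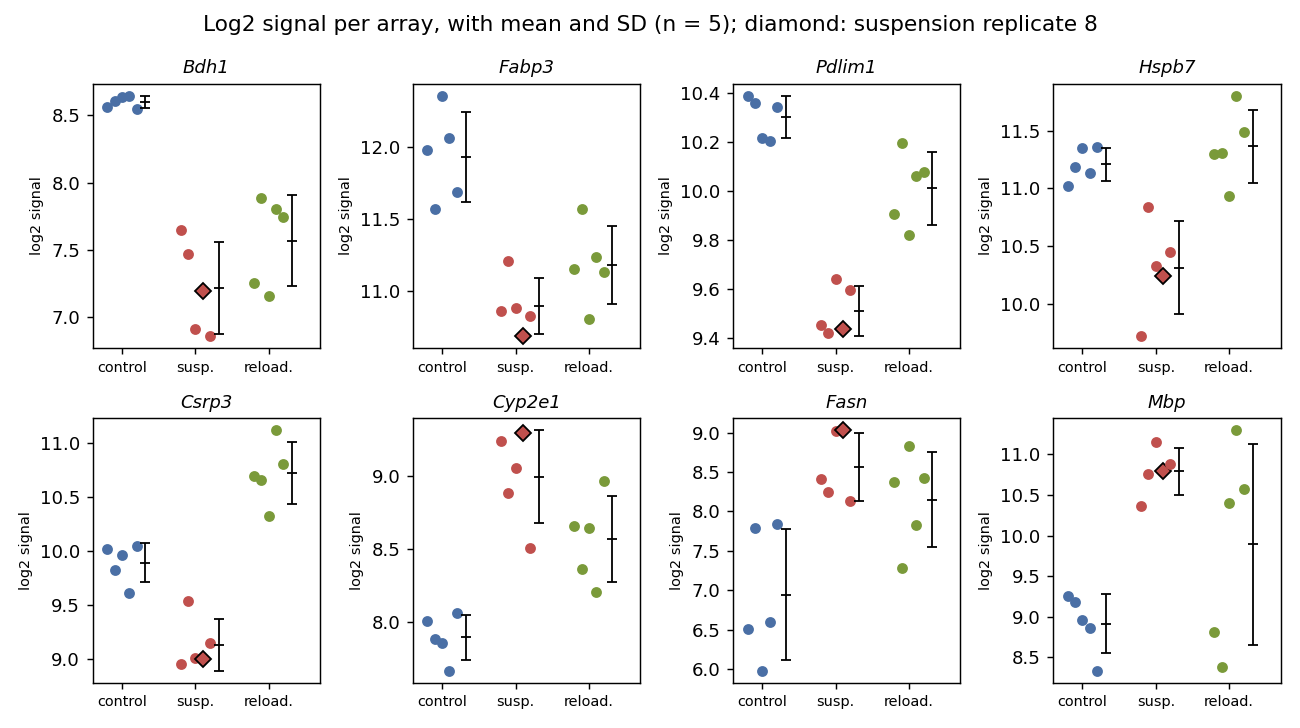
Log2 signal of 8 called genes on each control, suspension and reloaded calf array, with the group mean and SD (n = 5) beside the points and suspension replicate 8 as a diamond. Control and suspension do not overlap in any panel, and the reloaded arrays lie above the controls for Csrp3, between the groups for Pdlim1 and across the range of both groups for Mbp.

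Signalling and regulatory genes on the lower side included Tnfrsf12a, the receptor for the cytokine TWEAK. It read 9.39, 9.27, 9.36, 9.48 and 9.51 in control and 8.64, 8.32, 8.80, 8.39 and 8.80 in suspension. The groups lay 0.47 apart, and the gene fell by 0.81 (SE 0.14, limma adjusted p = 0.0105). Id1, which blocks basic helix-loop-helix factors, fell by 0.71 (adjusted p = 0.0294), from 7.83 ± 0.21 (SD, n = 5) to 7.12 ± 0.30. Klf4, a zinc finger transcription factor of the immediate-early list, fell by 0.57 (adjusted p = 0.0333). Of 20 tested immediate-early genes 17 were lower with a median of -0.14, and Klf4 alone was called (0.241% of all genes called lower). Fos differed by -0.49 with control values of 6.83 ± 0.61 (SD, n = 5) and an adjusted p of 0.675. F2r, a thrombin receptor, fell by 0.55 (adjusted p = 0.0252) and Egln3, a prolyl hydroxylase of the hypoxia-inducible factors, by 0.45 (adjusted p = 0.0444). Homer2, a scaffold protein, fell by 0.46 (adjusted p = 0.0363), Nup133 of the nuclear pore by 0.51 (adjusted p = 0.0333), Slc66a2 by 0.44 (adjusted p = 0.0105) and Rmdn1 by 0.43 (adjusted p = 0.0157). With 1 array left out, the calls of Id1 and F2r were kept in 4 of 10 fits, Klf4 and Nup133 in 3, Egln3 and Homer2 in 1, and Rmdn1 in 8.

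Collagens and tendon genes were lower in most members but varied between arrays. Chad, the cartilage and tendon protein chondroadherin, read 9.59, 9.24, 9.17, 9.36 and 9.47 in control and 9.16, 8.60, 8.91, 8.79 and 8.50 in suspension. Replicate 11 nearly met the lowest control, at 9.17, and the gene fell by 0.57 (SE 0.11, limma adjusted p = 0.0225). Its call was kept in 6 of 10 fits with 1 array left out. All 13 tested tendon and myotendinous genes were lower, with a median of -0.28, and -0.13 without suspension replicates 8 and 9. Per array the list's median stood at -0.05, -0.30, -0.08, -0.24 and -0.55 against the control mean, and at -0.07 to 0.08 in the controls. Col1a1, the main fibrillar collagen chain, read 10.61, 9.65, 10.59, 10.61 and 9.62 in control and 10.00, 8.59, 10.39, 8.04 and 8.38 in suspension. The groups overlapped, and the difference of -1.13 (SE 0.38) had adjusted p = 0.311. Of 22 tested genes of fibrillar and type VI collagens and their processing 20 were lower with a median of -0.31. Limma called 0, with 13 at an unadjusted p under 0.05. Of 15 fibroblast markers 14 were lower with a median of -0.11, and their summed log2 signal ran from 13.45 to 13.85 in control and from 13.15 to 13.68 in suspension. The part of tendon or connective tissue in the dissected calf was not tested.

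Myelin genes held the largest increase among the genes read by probe sets with 1 symbol. Mbp, myelin basic protein, read 9.25, 9.18, 8.96, 8.86 and 8.33 in control and 10.36, 10.75, 11.16, 10.80 and 10.88 in suspension. The lowest suspension array lay 1.11 above the highest control, and Mbp rose by 1.87 (SE 0.38), a 3.67-fold change (limma adjusted p = 0.0287). The spread in the fit also draws on the reloaded arrays, which read 8.82, 8.38, 10.40, 11.30 and 10.58. Its call was kept in 3 of 10 fits with 1 array left out, with adjusted p = 0.069 without suspension replicate 8. Of the 8 Mbp probe sets above the filter 6 differed by 0.93 to 2.10, and the others by 0.07 and 0.08. Cnp, the cyclic nucleotide phosphodiesterase of myelin, read 7.18, 7.35, 7.35, 6.95 and 7.20 in control and 7.71, 7.79, 7.82, 8.16 and 7.83 in suspension, and rose by 0.66 (adjusted p = 0.0331). The Cnp call was kept in 4 of 10 fits with 1 array left out, with limma adjusted p = 0.093 without suspension replicate 8. Ndrg1, a gene needed for peripheral myelin, read 7.42, 7.74, 7.38, 7.51 and 7.61 in control and 8.06, 8.23, 8.22, 8.57 and 8.44 in suspension, and rose by 0.77 (SE 0.12, adjusted p = 0.00376).

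The Schwann cell and myelin list, which counts Mbp, Cnp and Ndrg1 among its members, is described here as a whole. All 13 tested genes were higher, from 0.18 (Mag) to 1.87, with a median of 0.48, and 0.44 without suspension replicate 8. In 7 of the 13 the groups did not overlap, where 0.701% of all genes had suspension apart and above. The 3 called members (0.131% of all genes called higher) are the same Mbp, Cnp and Ndrg1. Egr2, Mog and Ugt8a were below the filter, so the count of 13 leaves them out. The summed log2 signal of the list ran from 11.28 to 11.53 in control and from 12.04 to 12.63 in suspension, so the groups did not overlap. That sum includes Mbp, whose mean was 8.92 in control and 10.79 in suspension. Pmp22, a compact myelin protein, read 9.70, 9.78, 9.62, 9.70 and 9.56 in control and 10.32, 10.69, 11.04, 11.04 and 10.78 in suspension, with a difference of 1.10 and limma adjusted p = 0.0566. S100b, a calcium-binding protein of glia, differed by 0.44 (adjusted p = 0.0541) and Dhh, a hedgehog ligand secreted by Schwann cells, by 0.37 (adjusted p = 0.0541). S100b and Dhh were dim, with control means of 5.51 and 5.52 and suspension means of 5.95 and 5.90. Those control means lay below the level of the filter, which a gene had to exceed on only 4 arrays of any group. The part of nerve tissue in the Mbp, Cnp and Ndrg1 differences was not tested. Genes of denervation and the neuromuscular junction had a median of 0.02, which turned to -0.01 without suspension replicate 8, and Myog, which rises in denervated muscle, differed by -0.04 and Chrna1, the acetylcholine receptor subunit, by -0.11.

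The other genes that rose were read at lower fold changes. Apod, apolipoprotein D, rose by 0.56 (limma adjusted p = 0.0363) and Cd9, a tetraspanin, by 0.45 (adjusted p = 0.0457). Both calls were kept in 1 of 10 fits with 1 array left out. Art3, of the ADP-ribosyltransferase family, rose by 0.49 (adjusted p = 0.0195) and Gnai1, an inhibitory G protein subunit, by 0.55 (adjusted p = 0.0195), and both were kept in 8 of 10. Tfcp2l1, a transcription factor, rose by 0.54 (adjusted p = 0.0325) and was kept in 3 of 10. In each of these 5 genes the suspension arrays were all above the controls. Tfcp2l1 and Gnai1 were dim. Tfcp2l1 read 5.20 to 5.67 in control, all below the level of the filter, and 5.79 to 6.39 in suspension. Gnai1 read 5.54 to 6.00 in control and 6.11 to 6.54 in suspension. Their other probe sets were below the filter and differed by 0.01 and 0.08 for Tfcp2l1 and by 0.10 and 0.06 for Gnai1.

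**Figure D3:**
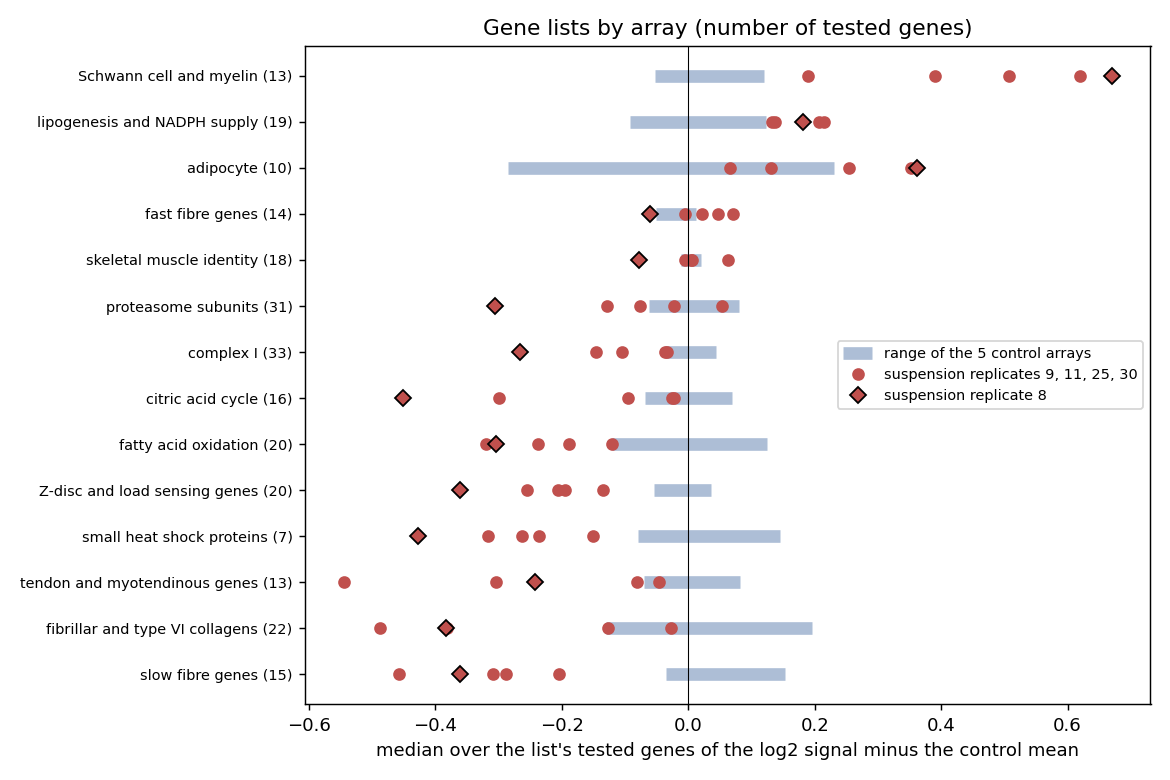
For each gene list the x axis gives the median over its tested genes of the log2 signal minus the control mean, as a bar for the range of the 5 control arrays and points for the 5 suspension arrays, with replicate 8 as a diamond. The 5 suspension arrays of the Schwann cell and myelin list, from 0.19 to 0.67, lie above the control range, those of the slow fibre list, from -0.46 to -0.21, lie below it, and replicate 8 is the lowest for the citric acid cycle, complex I and the proteasome.

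Lists of genes commonly followed in wasting muscle held no called member over all arrays. The ubiquitin ligases of atrophy and FoxO genes had 0 of 12 called by limma, 1 at an unadjusted p under 0.05 and a median of 0.02. Gadd45a, a growth arrest gene, differed by 0.39 (limma adjusted p = 0.186). Without suspension replicate 8 it differed by 0.49 (adjusted p = 0.0342), and it was the 1 gene called only then. Fbxo32, an atrophy ligase, read 10.28 ± 0.31 (SD, n = 5) in control and 10.26 ± 0.25 in suspension. Foxo1, a transcription factor of that programme, differed by 0.18 (limma adjusted p = 0.753), and its other probe sets by 0.06 to 0.30, none of them called. Of 31 proteasome subunits 28 were lower with a median of -0.13, but the median was -0.05 without suspension replicate 8, in which alone it stood at -0.31. Glucocorticoid-responsive genes had 14 of 20 higher and a median of 0.08, and 0.15 without suspension replicate 8. Limma called 0 of them, with 3 at an unadjusted p under 0.05. Fkbp5, induced by glucocorticoids, differed by 0.43 (adjusted p = 0.476). Cdkn1a, an inhibitor of the cell cycle, differed by 0.04, Mt1, a metallothionein, by 0.09, and Igf1 by 0.12. Cytoplasmic ribosomal proteins had a median of 0.02, with 0 of 32 called by limma and 0 at an unadjusted p under 0.05.

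Markers of most other cell types had small median differences. The medians were 0.04 for macrophages and monocytes, 0.01 for other leukocytes, -0.08 for endothelium, -0.06 for smooth muscle and pericytes, and -0.01 for satellite cells, and limma called 0 markers of these lists. Without suspension replicate 8 the medians were -0.01 for macrophages and monocytes and -0.04 for other leukocytes. An unadjusted p under 0.05 was reached by 1 macrophage and 2 endothelial markers and by 0 of the other 3 lists. Of the endothelial markers 13 of 18 were lower, and of smooth muscle and pericytes 11 of 14, against 49.1% of all genes. For macrophages 5 of 16 were lower, for other leukocytes 6 of 13 and for satellite cells 4 of 7. The summed log2 signal of the endothelial list ran from 11.72 to 11.83 in control and from 11.69 to 11.73 in suspension. For macrophages it ran from 10.80 to 11.01 in control and from 10.69 to 11.11 in suspension. Skin and hair markers had a median of 0.08, and 0.01 without suspension replicate 8, in which the list stood at 0.35.

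Other probe sets of the called genes mostly moved alike. Of the 34 genes 13 have a single probe set, and 15 have another above the filter. Of those 33 other probe sets 32 differed in the same direction, and 29 also had an unadjusted p under 0.05. A second probe set differed by 0.01 for Slc66a2, against -0.44 for the brightest, and by -0.01 for Rmdn1, against -0.43. For Nup133 the other probe sets above the filter differed by -0.31 and -0.30, and 1 below it by 0.19. Of 12 probe sets of called genes below the filter, 2 differed the same way with an unadjusted p under 0.05, those of Bdh1 and F2r. When 14849 probe sets were tested one by one, 56 were called, and they named 36 genes. Of the 56, 4 have no symbol and 2 have several. A probe set without a symbol differed by 2.23 (limma adjusted p = 0.0235), more than any called gene. The 5 genes called only through a probe set other than the brightest are named here after their values were seen. Akap1, which anchors protein kinase A at mitochondria, differed by -0.37 on that probe set, Acaa2, the last enzyme of fatty acid oxidation, by -0.38, and Rcan1, an inhibitor of calcineurin, by -0.74. Mal, a myelin proteolipid, differed by 1.20 and Serinc3 by 0.37. For the brightest probe set Acaa2 differed by -0.40 and Rcan1 by -0.58, neither called.

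The reloaded arrays are set beside the same controls, so the comparisons share those samples. Against control 29 genes were called in reloaded calf (0.318%), and between reloaded and suspended calf 53 (0.58%). Of the 170 values of the 34 genes on 5 reloaded arrays, 67 lay in the suspension range, 36 in the control range, 46 between them, 16 beyond the control side and 5 beyond the suspension side. In reloaded calf Bdh1 read 7.25, 7.88, 7.16, 7.81 and 7.75, below every control. It differed from control by -1.03 (limma adjusted p = 0.00101), Fabp3 by -0.75 (adjusted p = 0.0128), Idh2 by -0.63 (adjusted p = 0.00986), Cyp2e1 by 0.67 (adjusted p = 0.0359) and Fasn by 1.20 (adjusted p = 0.158). Slow fibre genes had a median of -0.16 against control after reloading.

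Load-related genes differed between reloaded and suspended calf. Csrp3 read 10.70, 10.66, 10.33, 11.12 and 10.81 in reloaded calf, above every control, and was 1.60 higher than in suspension (limma adjusted p = 6.54e-07). Tnfrsf12a was 1.42 higher (adjusted p = 4.96e-06), Hspb7 1.05 higher (adjusted p = 0.000975), F2r 0.65 higher (adjusted p = 0.00232) and Pdlim1 0.50 higher (adjusted p = 0.00143). Klf4, Cryab and Slc66a2 were also called, so that 8 of the 34 genes, all of them lower in suspension, were called higher in reloaded calf. The 34 genes were chosen by their values on the same suspension arrays. A move back from suspension is therefore favoured by that choice, and the count is no separate evidence of one. For Bdh1 the difference was 0.35 (adjusted p = 0.474) and for Fabp3 0.28 (adjusted p = 0.544). The list of Z-disc and load-sensing genes had a median of 0.08 against control after reloading, and that of small heat shock proteins 0.04.

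The flown mice were compared with other controls, of gastrocnemius. The free-text descriptions of these 8 samples give each group the housing of the other, while titles, source names and the design are in accord, so titles were used. If the descriptions were right, each flight difference would turn its sign. By title, 515 genes were called in flight (5.64%), and 12 of the 34 suspension genes were among them, all with the same sign. By sign alone, 28 of the 34 had the same sign in flight, against 55.2% of all genes. Bdh1 differed by -1.44 in flight (limma adjusted p = 0.012), Pdlim1 by -0.61 (adjusted p = 0.0105), Fasn by 1.13 (adjusted p = 0.000416), Tkt by 0.99 (adjusted p = 0.000512) and Cyp2e1 by 1.56 (adjusted p = 0.00308). Mbp differed by 0.23 in flight (adjusted p = 0.696), Csrp3 by 0.01 (adjusted p = 0.991) and Casq2 by -0.09 (adjusted p = 0.719).

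The difference between the flight effect and the suspension effect was tested over all 23 arrays and called in 116 genes (1.27%). Of the 34 genes 2 were called. The 8 gastrocnemius arrays had ranges from 2.75 to 2.91 and the 15 calf arrays from 2.20 to 2.46. The part of this unlike range, and of the unlike tissue, in the difference of effects was not tested. Tnfrsf12a differed by 0.11 in flight and -0.81 in suspension, a difference of 0.92 (SE 0.24, limma adjusted p = 0.0494). Hspb7 differed by 0.12 in flight and -0.89 in suspension, a difference of 1.01 (SE 0.25, adjusted p = 0.0432). For Mbp the difference of effects was -1.65 (SE 0.55, adjusted p = 0.164) and for Casq2 0.55 (SE 0.16, adjusted p = 0.0864). With the flight groups exchanged, as the descriptions would have it, the difference of effects was called in 529 genes (5.79%) and in 28 of the 34. Tnfrsf12a and Hspb7 were then not called, with differences of 0.70 (SE 0.24, adjusted p = 0.0811) and 0.78 (SE 0.25, adjusted p = 0.0687). In that reading 6 of the 34 had the same sign in flight as in suspension. This setting was chosen after seeing the data.

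**Figure D4:**
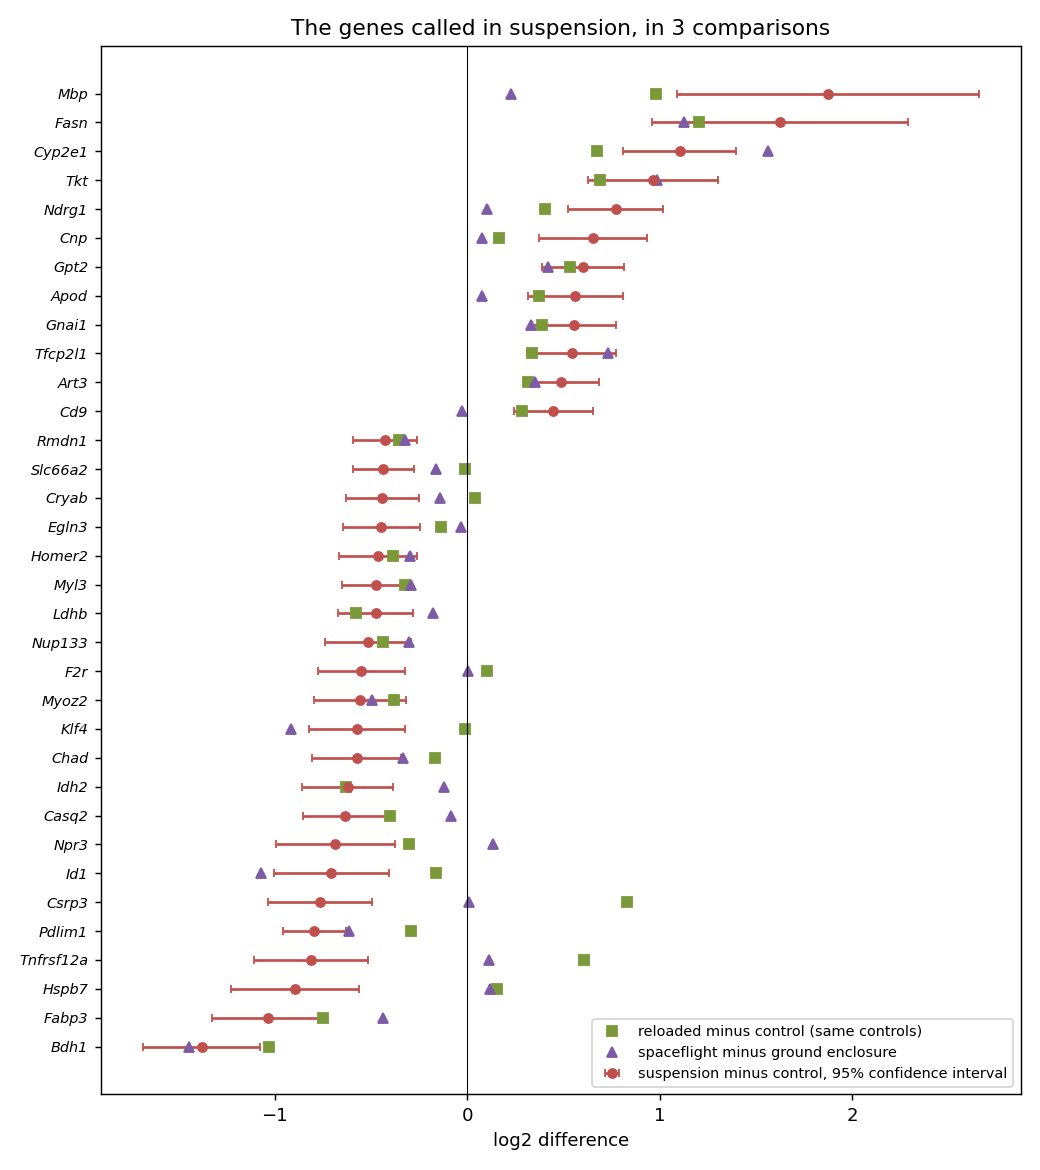
The x axis gives the log2 difference of the 34 genes called in suspension, with circles and 95% confidence intervals for suspension minus control, squares for reloaded minus the same controls and triangles for spaceflight minus ground enclosure. Reloaded values for Csrp3 (0.83) and Tnfrsf12a (0.61) lie on the other side of 0 from the suspension values, while Bdh1, Fasn, Tkt and Cyp2e1 lie on the same side in all 3 comparisons.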

How the data were processed

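Total RNA was hybridised to Affymetrix arrays, and the authors deposited 1 table of log2 values, from 2.49 to 14.2. RMA and MAS5 are named in the submitters' processing notes, without versions and without saying which made the table. The labels hold no scan date or batch, and nothing was normalized further. After 64 control probe sets were left out of 22690, probe sets with 1 symbol gave 12393 genes, each read from its brightest probe set. Genes exceeding 5.83, the table's 40th percentile, on 4 arrays or more were tested with limma 3.58.1 in R 4.3.3. Control, suspension and reloaded calf (15 arrays) shared 1 estimate of spread, and p-values were adjusted over 9133 genes by Benjamini-Hochberg. The fit was tested on simulated data. Genes named were those called, the next 10 and preset members of 45 lists. Genes and lists were chosen with earlier results of these data known, and no list test was run. Some preset genes were not analysed here, and Myc, Ptprc, S100a8, Pax7 and Mki67 were below the filter. Alternatives covered the filter, probe sets, scaling, weights, thresholds, the arrays in the fit and leaving arrays out, and exchanging the flight groups was added after seeing the data. Precision is limited by the number of arrays.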

Additional observations from a re-analysis of the deposited data

Results flagged for a closer look

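Among 298 groups of 5 arrays checked for the named genes, 17 held an array far from the other 4, with a gap to its nearest neighbour above 0.71 of the group's range. Chance gives about 1 in 20. In suspension, replicate 8 stood out 4 times: it was the highest for Cnp (8.16) and the lowest for Cycs, cytochrome c (11.3), the proteasome subunit Psma1 (7.53) and the calcium release channel Ryr1 (12.59). Suspension replicate 25 was the highest for Ddit4, an inhibitor of growth signalling (8.49), and the lowest for Ccnd1 (7.17). Suspension replicate 11 was the highest for Ppargc1a (7.12), and replicate 30 the lowest for the slow calcium pump Atp2a2 (11.9).

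In control, replicate 19 was the lowest for Tfcp2l1 (5.2) and the highest for Hsp90aa1 (7.87). Control replicate 1 was the lowest for Col4a1 (9.36) and for Rps6 (6.62) and the highest for Klf15 (8.17). Control replicate 2 was the lowest for Myh1 (12.23) and the highest for Pdgfra (7.44). Control replicate 22 was the highest for the immediate-early gene Egr1 (8.47), and replicate 21 the lowest for Car3 (12.71).

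The flight effect minus the suspension effect was 0.92 for Tnfrsf12a and 1.01 for Hspb7, in limma's test of the difference over all 23 arrays. In suspension the genes differed by -0.81 and -0.89, so the positive sign does not mean a larger change in flight. The flight arrays also differ from the calf arrays in range and tissue label, and the part of this was not tested. With the flight groups exchanged, a setting chosen after seeing the data, the differences were 0.70 for Tnfrsf12a and 0.78 for Hspb7, neither called.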

How the results depend on the processing

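The 34 calls (12 higher, 22 lower) became 17 (7, 10) with probe sets averaged per gene, 9 (4, 5) at adjusted p under 0.01, 70 (30, 40) under 0.1, 17 (7, 10) with a 1.5-fold minimum, and 7 (4, 3) without suspension replicates 8 and 9. With arrays centred and replicate 8 left out, a setting chosen after seeing the data, they became 15 (5, 10). Genes called higher numbered 21 with control and suspension arrays alone and 20 with all 23 arrays. With 1 array left out the count ran from 15 (without control replicate 22) to 47 (without suspension replicate 11), with 5 to 20 higher and 9 to 27 lower. It was 16 without control replicate 19, 21 without suspension replicate 30, 19 without replicate 8 and 21 without replicate 9. Other settings gave 25 to 48 calls. All 34 genes were called after centring, 33 with array range as a covariate and 31 after quantile normalization, and 0 reversed in any setting. The 18 lists with a median at least 0.1 from 0 kept its sign in every setting, and 14 of the 45 lists changed sign in some setting. The adipocyte median was 0.46 with a filter at the 60th percentile. The causes were not tested. No paired analysis was possible because control and suspension share no replicate number in the labels.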
